A study of Rattus norvegicus with 30 samples.

Results

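The genes described here encode the protein components of the cytosolic ribosome. They were chosen by symbol: Rpl or Rps followed by a number, with Rplp0, Rplp1, Rplp2 and Rpsa added, and without the Rps6k kinases, pseudogenes and paralogues whose symbols end in l or l1. One probe set per gene was kept, the one with the highest mean log2(signal + 1) over all arrays, and only probe sets that name a single gene. This found 42 genes among the 14217 single-symbol genes of the array. Above the low-signal limit (a mean log2 signal of 7.88) were 41 of them, 28 of the 60S subunit and 13 of the 40S subunit, among 10528 tested genes. Rpl28, whose probe set had a mean of 5.96, was the member left out of the tests. Rplp1, Rplp2 and Rps27a had no probe set of their own under the rule.

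The arrays measured RNA of primary rat hepatocytes, the main metabolic cells of the liver, after 24 or 48 h with dioctyl phthalate, a plasticiser and a known peroxisome proliferator in rodents. Male Sprague Dawley hepatocytes had been bought frozen, plated on collagen under Matrigel and dosed on day 3 of culture. There were 6 groups of 5 wells, 1 array per well: vehicle, 250 µM and 1000 µM, each at 24 h and at 48 h, and all groups received 1% DMSO. The labels do not say how many animals or vials stood behind the wells, so errors and p-values measure the spread between these wells.

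Ribosomal proteins assemble with ribosomal RNA in the nucleolus, helped by a large set of biogenesis factors, and both subunits then join on a messenger RNA to make protein. Their genes are transcribed at high and matched levels, and many of their transcripts begin with a C followed by a run of pyrimidines, the terminal oligopyrimidine (TOP) motif, through which mTORC1 and the RNA-binding protein Larp1 set how well they are translated. In the liver, which secretes most plasma proteins, ribosomes hold much of the RNA, and unassembled Rpl5 and Rpl11 link faults in ribosome assembly to p53 by binding Mdm2.

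Several member promoters carry this motif at the annotated start, and a few are shown as examples with and without it, most of them of genes named in the results below. Each stretch covers 30 bases, 10 before and 20 from the annotated first base of the transcript, from RefSeq on build GRCr8, with the run of C and T from the first base in capitals. The first 4 have a C and a run at the start, and the last 3 do not.
Rplp0, chr12:46718371-46718400, minus strand: caccgcacttCTCTCgccaggcgtcctcat
Rpl19, chr10:83519054-83519083, plus strand: ccagcaagctCTTTCCTTTCgctgctgcgt
Rpl35, chr3:43165902-43165931, minus strand: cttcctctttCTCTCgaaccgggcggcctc
Rps15, chr7:10068096-10068125, minus strand: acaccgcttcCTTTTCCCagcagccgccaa
Rps6, chr5:106420521-106420550, minus strand: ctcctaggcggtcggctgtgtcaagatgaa
Rps3, chr1:163195757-163195786, minus strand: ttcagcggcgCgcggcagcaagatggcggt
Rpl21, chr12:13386134-13386163, minus strand: ttccgccggggcagccatcttccaggttgg

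Of the 42 members, 35 matched a promoter by gene ID. A C at the annotated start with at least 4 more C or T after it was present in 11 of these 35 (31.4%), in 723 of 27457 promoters of the table (2.63%) and in 4 of 104 matched ribosome biogenesis factors (3.85%). Allowing the run to begin within 5 bases either side of the start, a width chosen after the sequences were seen, gave 19 of 35 members (54.3%) and 17.0% of all promoters. An annotated start can differ from the one used in these cells, and no match says only that these letters are not in this window. Other letters searched on both strands over the 300 bases, 250 before to 50 after the start, were GGGCGG, found in 65.7% of members, 34.7% of all promoters and 61.7% of the 8815 matched promoters of tested genes, CCGGAAG (22.9%, 9.21% and 18.2%), AAGATGG (22.9%, 7.26% and 8.74%) and TATAAA (11.4%, 14.3% and 7.33%). Beside the tested genes the shares for GGGCGG and CCGGAAG were close to the background, while a C and a run at the start stood in 2.54% of tested genes and a run near the start in 17.3%. Each was searched on its own, and overlaps between them were not counted.

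The members were among the brightest probe sets of the array. In 38 of the 41 the mean log2 signal was 14.96 to 16.09, and the brightest probe set of any kind on each array lay between 16.00 and 16.83. Rpl39, a short protein beside the peptide exit tunnel, had a dimmer probe set (mean 10.64), as did Rpl30 (8.40) and Rps13 (8.06). Of these 3, Rps13 ranged from 6.12 to 8.84 over single arrays, and each had a standard error of 0.204 to 0.348 per comparison against 0.048 to 0.103 for the other 38. They were tested but carry little precision. Arrays compare a probe set with itself across samples, so signals of different genes are not ranked here, and precision is limited by 5 arrays per group.

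The arrays differed from each other in ways the groups do not explain, and the 38 bright members moved together when they did. On replicate 5 of vehicle at 24 h all 38 lay above their group mean, with a median log2 signal of 15.70 where the other 4 arrays of the group had 15.44 to 15.55. On replicate 1 of 1000 µM at 24 h all 38 lay below it, with a median of 15.25 against 15.49 to 15.57. These arrays also had the highest and the lowest array maximum of the series (16.83 and 16.00), and the median of the 224 other genes as bright as these 38 (a mean above a limit set just under the dimmest of them) was 15.49 and 15.12 on them. The part of such whole-array shifts in the results below was not tested. Beta-actin has probe sets at both ends of its message, and the 3'/5' ratio, on a log2 scale, which rises when RNA is shortened, averaged 1.72 ± 0.494 (SD, n = 5) in vehicle at 48 h, where replicates 1, 2, 3 and 5 had 2.44, 1.74, 1.70 and 1.66 and replicate 4 had 1.04. It averaged 1.14 in vehicle at 24 h. All 9 measured hepatocyte markers were above the limit, with Alb at a mean of 15.96. Of markers of other liver cells, 6 of 10 for stellate cells and fibroblasts, 6 of 9 for Kupffer cells and leukocytes, 3 of 8 for endothelium and 1 of 5 for cholangiocytes passed it. Under it were Ptprc of leukocytes (6.89), Pecam1 of endothelium (7.77) and Krt19 of bile duct cells (7.48). Above it were Cd14 (13.78) and Lyz2 (12.88) of the Kupffer and leukocyte list, Eng (9.26) and Kdr (8.67) of the endothelial list and Epcam (13.47) of the cholangiocyte list. The summed stellate and fibroblast markers were 13.39 to 13.97 in vehicle at 24 h and 13.98 to 14.08 in vehicle at 48 h, and 12.85 to 13.18 in the 4 treated groups on a log2 scale. Vim, the brightest of them, had group means of 13.25 and 13.62 in vehicle and 11.92 to 12.21 in the treated groups. Of the dimmer markers of that list Col1a1 averaged 8.84 in vehicle and 8.93 at 250 µM at 24 h, and 8.42 and 9.20 at 48 h, and Des averaged 8.94 and 8.94 at 24 h. The Kupffer and leukocyte sum was 14.44 to 14.81 in vehicle at 24 h and 14.32 to 14.47 at 48 h, and 14.32 to 14.77 on single arrays of the treated groups. The part of other cells in the results was not tested.

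**Figure D1:**
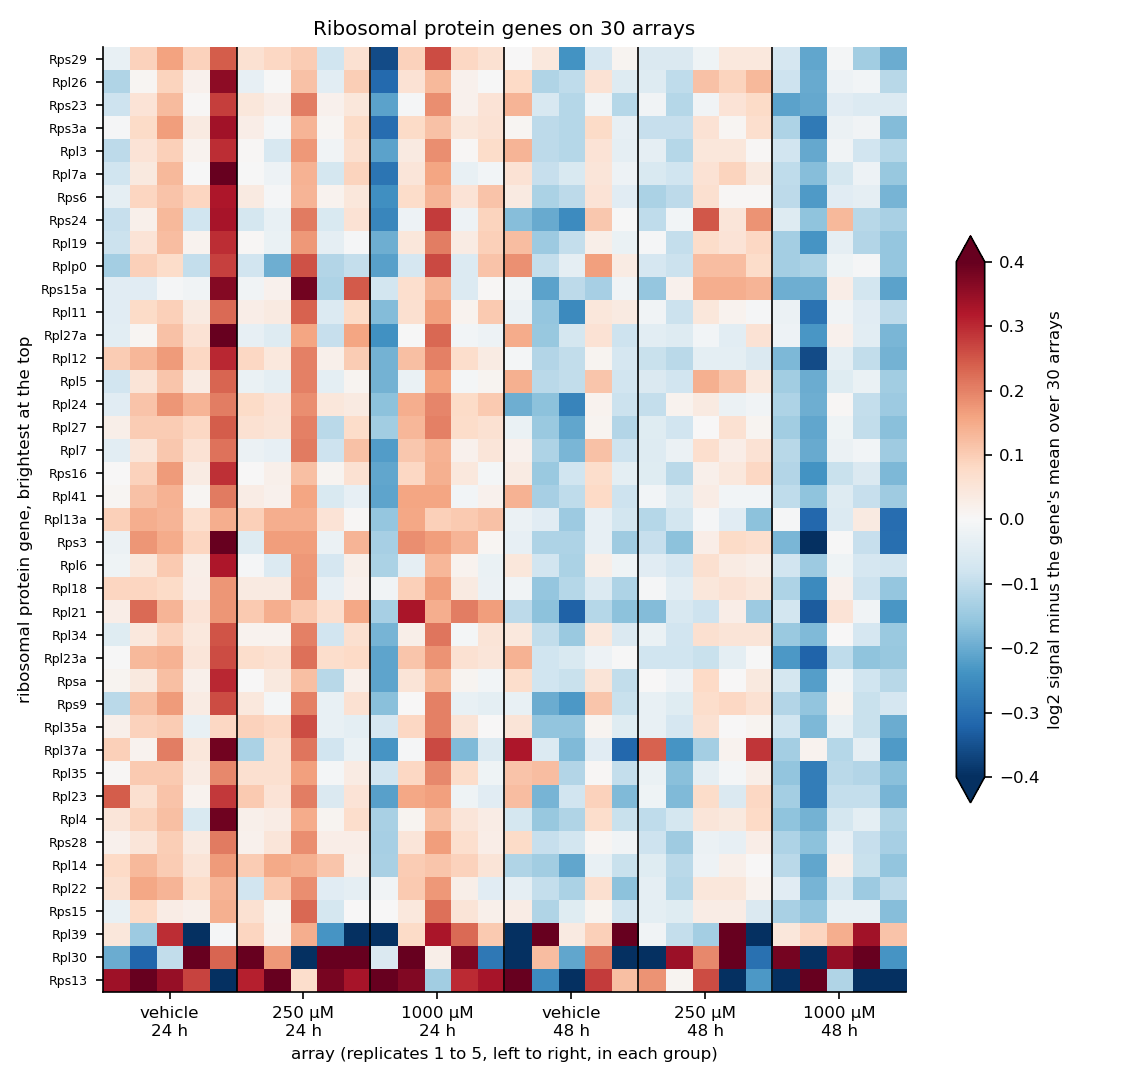
Log2 signal of the 41 tested ribosomal protein genes on the 30 arrays, each minus that gene's own mean, with 5 replicates per group from left to right and the brightest genes at the top (colours are capped at 0.4). Whole columns share a colour, as for replicate 5 of vehicle and replicate 1 of 1000 µM at 24 h, while the 3 dim genes at the bottom vary without that pattern.

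**Figure D2:**
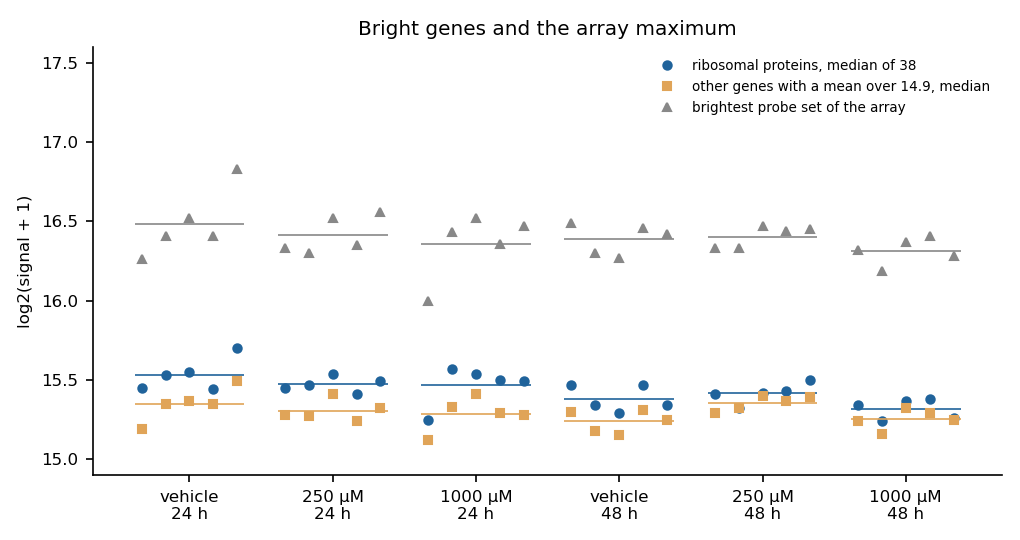
Median log2 signal of the 38 bright ribosomal protein genes (circles), of the 224 other bright genes (squares) and the brightest probe set (triangles) on each array, with group means as lines. Replicate 5 of vehicle at 24 h has the highest ribosomal protein median (15.70) and replicate 2 of 1000 µM at 48 h the lowest (15.24).

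At 24 h no ribosomal protein gene passed the test at either dose. With limma, 0 of 41 members had an adjusted p under 0.05 for 250 µM against vehicle, and 0 of 41 had an unadjusted p under 0.05, where 19.3% of all tested genes were called (8.31% up, 11% down). No member had groups that did not overlap, where 6.74% of genes lay wholly above vehicle and 8% wholly below. For 1000 µM the counts were again 0 and 0, where 19.5% of all genes were called (8.28% up, 11.2% down), and 0 members had groups apart, where 6.31% of genes lay wholly above vehicle and 7.81% wholly below. The same counts of 0 were found with the quantile-normalized values and with the other settings described in the closing section, except 1 member called lower at each dose when a gene's probe sets were averaged. In the 38 bright members the log2 changes lay between -0.14 and 0.05 at 250 µM and between -0.19 and 0.02 at 1000 µM. Their 95% intervals reached from -0.35 to 0.22 and from -0.40 to 0.16, so changes of that size are not excluded by these arrays. The median over the 41 members was -0.04 and -0.06, against -0.03 and -0.03 over all tested genes, and it turned to 0.006 and 0.005 when arrays were centred on the 224 other bright genes.

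Fixed members show what this looks like per well. Rps6, the 40S protein phosphorylated by S6 kinase, had log2 signals of 15.70, 15.82, 15.85, 15.82 and 16.06 in vehicle at 24 h. It read 15.77, 15.73, 15.87, 15.75 and 15.78 at 250 µM and 15.49, 15.81, 15.87, 15.79 and 15.85 at 1000 µM. The groups overlapped, and the differences from vehicle were -0.07 ± 0.064 (SE, n = 5, adjusted p = 0.517, limma) and -0.09 ± 0.064 (adjusted p = 0.375). Rplp0, the scaffold of the stalk that recruits elongation factors and a common reference gene in PCR work, had 15.53, 15.76, 15.74, 15.57 and 15.94 in vehicle, 15.59, 15.47, 15.92, 15.55 and 15.57 at 250 µM, and 15.45, 15.60, 15.93, 15.61 and 15.78 at 1000 µM. These wells were spread over the same range, and the differences for Rplp0 were -0.09 ± 0.083 (limma adjusted p = 0.555) and -0.03 ± 0.083 (adjusted p = 0.849). Rpsa, a 40S protein also known as the laminin receptor precursor, had a mean of 15.39 ± 0.124 (SD, n = 5) in vehicle, 15.30 ± 0.0814 at 250 µM and 15.29 ± 0.127 at 1000 µM. Rpl13a, known outside the ribosome from a complex that silences inflammatory transcripts, had means of 15.50 ± 0.036, 15.48 ± 0.061 and 15.44 ± 0.124.

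Rpl5 and Rpl11, the proteins of the 5S particle that links the ribosome to p53, had overlapping groups at both times. Rpl5 averaged 15.68 ± 0.115, 15.63 ± 0.101 and 15.60 ± 0.122 (SD, n = 5) in vehicle, 250 µM and 1000 µM at 24 h, and 15.60 ± 0.123, 15.64 ± 0.10 and 15.50 ± 0.0695 at 48 h. Rpl11 averaged 15.74 ± 0.0988, 15.73 ± 0.107 and 15.70 ± 0.131 at 24 h and 15.60 ± 0.13, 15.65 ± 0.0497 and 15.57 ± 0.114 at 48 h. The log2 changes against vehicle of the same time ran from -0.11 to 0.04 for Rpl5 and from -0.04 to 0.06 for Rpl11, and none passed the test.

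At 48 h few members passed the test, although more of all genes did than at 24 h. At 250 µM 0 of 41 members were called by limma and 1 had an unadjusted p under 0.05, where 41.2% of all tested genes were called (15.2% up, 26% down). No member had groups apart, where 10.2% of genes lay wholly above vehicle and 15.1% wholly below. That member was Rpl18, with a change of 0.11 ± 0.048 (SE, n = 5, adjusted p = 0.067, named after its value was seen). In the 38 bright members the changes ran from -0.06 to 0.18, with 95% intervals from -0.19 to 0.35. The median of the 41 was 0.04, against -0.07 over all genes and 0.10 over the 224 other bright genes, and it turned to -0.04 with quantile normalization and to -0.07 after centring on the other bright genes, which moved the median of all genes by 0.117. With those values 6 and 16 members were called lower, so both the direction and the count at this dose depend on the scaling. Without replicate 4 of vehicle 3 members were called higher, where 4683 of all genes were called, 1742 of them higher.

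At 1000 µM and 48 h 2 of 41 members fell, both 60S proteins near the exit of the peptide tunnel, and 0 rose, where 18.3% of all tested genes fell, 11.5% rose and 29.7% changed either way. Rpl23a, which helps to bind the signal recognition particle, had log2 signals of 15.43, 15.21, 15.23, 15.27 and 15.29 in vehicle, 15.21, 15.21, 15.20, 15.25 and 15.29 at 250 µM, and 15.06, 14.97, 15.19, 15.13 and 15.14 at 1000 µM. Every 1000 µM well lay below every vehicle well, which held for 1 member and for 10.9% of all genes (7.45% lay wholly above), and the change was -0.19 ± 0.059 (SE, n = 5, adjusted p = 0.0147), a fall to 0.878 of the vehicle signal. Rpl35, its neighbour at the tunnel exit, had 15.33, 15.34, 15.10, 15.22 and 15.12 in vehicle, 15.19, 15.05, 15.18, 15.21 and 15.24 at 250 µM, and 15.06, 14.94, 15.11, 15.10 and 15.05 at 1000 µM. The highest 1000 µM well lay just above the lowest vehicle well, and the change was -0.17 ± 0.055 (adjusted p = 0.019).

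Both calls are of small changes, and they were lost under several settings. The difference was -0.14 for Rpl23a (limma adjusted p = 0.134) and -0.12 for Rpl35 (adjusted p = 0.186) with the actin 3'/5' ratio as a covariate, and both calls were lost with array medians centred, where the changes were larger (-0.22 and -0.20, adjusted p = 0.0518 and 0.0833), without replicate 1 of vehicle (0.0629 and 0.0679) or without replicate 2 of 1000 µM (0.0554 and 0.067). Without replicate 2 of vehicle Rpl23a was called and Rpl35 was not (adjusted p = 0.0733). With vehicle represented by its replicate 4 alone, the well with the low actin ratio, the changes were about as large (-0.17 and -0.16), and neither was called. Such a fit assumes that the lone array varies like the other groups. Over the 5 vehicle arrays taken alone the change ran from -0.34 to -0.11 for Rpl23a, called with array 1, and from -0.29 to -0.04 for Rpl35, called with arrays 1 and 2. With quantile normalization 8 members fell, these 2 among them (adjusted p = 6.4e-06 for Rpl23a and 5.79e-05 for Rpl35), and after centring on other bright genes 16 fell. The share of all tested genes called under these scalings is not given, so neither count has a background beside it. The median of the 41 members was -0.07 against -0.04 over all genes, and 0.00 over the other bright genes.

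**Figure D3:**
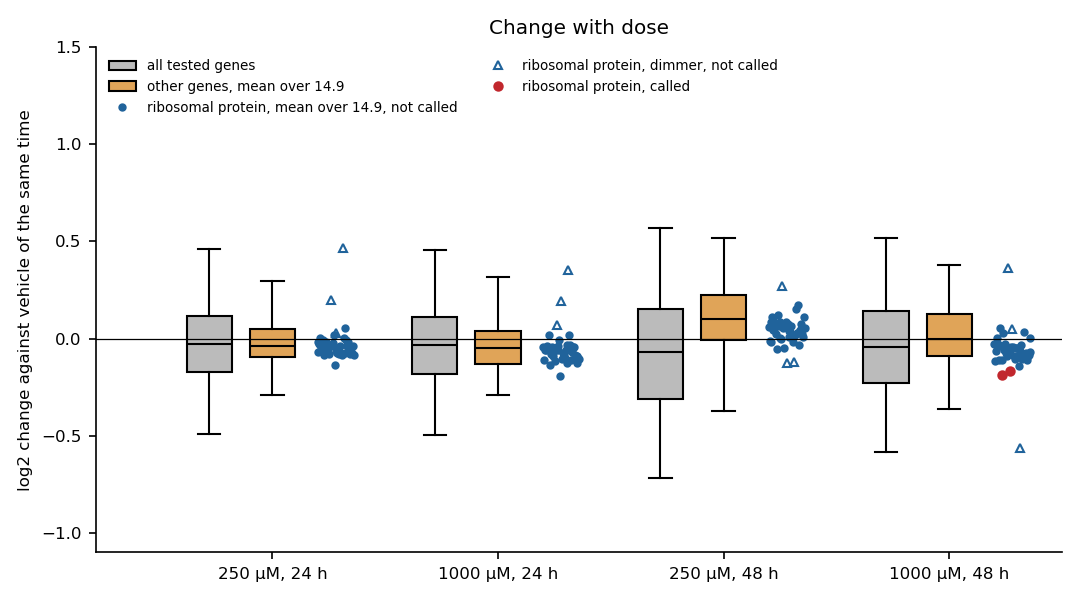
Log2 change against vehicle of the same time for each tested ribosomal protein gene (circles for the 38 bright genes, triangles for the 3 dim ones, red where called), beside boxes for all 10528 genes and for the 224 other bright genes (box from the lower to the upper quartile, line at the median, whiskers from the 5th to the 95th percentile). The bright ribosomal proteins stay between -0.19 and 0.18 in all 4 comparisons, and the 2 called points are Rpl23a and Rpl35.

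No member passed a test between the doses. For 1000 against 250 µM, 0 of 41 members were called at either time, where 0.019% and 0.0665% of all genes were (at 24 h 0% up and 0.019% down, at 48 h 0.038% up and 0.0285% down), and 0 and 9 had an unadjusted p under 0.05. At 48 h 39 of 41 lay below 0, with a median of -0.11 against 0.02 over all genes, and -0.10 over the other bright genes. This median moved to -0.013 with quantile normalization. Groups were apart for 0 members at 24 h, where 0.437% of genes lay wholly higher and 0.551% wholly lower at 1000 µM, and for 1 member, lower, at 48 h, where 1.14% and 1.75% did. The smallest unadjusted p belonged to Rpl18 (change -0.14 ± 0.048, adjusted p = 0.246, named after its value was seen).

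More members passed the test between times than between doses, in the deposited scaling. Between 24 and 48 h in vehicle 12 of 41 members fell and 0 rose, where 11.7% of all genes fell and 16.4% rose (28.1% either way). At 1000 µM 14 fell and 0 rose, where 8.11% of all genes fell and 9.91% rose (18% either way). At 250 µM 1 member, Rpl21, fell and 0 rose, where 6.52% of all genes fell and 6.86% rose (13.4% either way). Of the 224 other bright genes 52 fell and 10 rose in vehicle, 27 fell and 7 rose at 1000 µM, and 18 fell and 22 rose at 250 µM. The median change of the 41 was -0.145, -0.055 and -0.144 in vehicle, 250 µM and 1000 µM, against 0.02, -0.02 and 0.01 over all genes and -0.104, 0.035 and -0.048 over the other bright genes. In all 3 conditions 33 of 41 members lay below 0.

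Of the genes that fell in vehicle, 9 of 12 (75%) also fell at 1000 µM, which is 64.3% of the 14 there, and these comparisons share no arrays. Over all tested genes the shares were 44.2% of 1232 and 63.8% of 854, and over the other bright genes 36.5% of 52 and 70.4% of 27. The 9 members that fell in both were Rpl12, Rpl13a, Rpl14, Rpl18, Rpl21, Rpl22, Rpl24, Rpl27 and Rps3. Rpl4, Rpl23 and Rps9 passed the test in vehicle and not at 1000 µM, and Rpl23a, Rpl35, Rpl35a, Rps15 and Rps28 the other way round. The limma test of the difference between treated and vehicle wells in their change with time called 0 of 41 for each dose, with 1 and 0 members at an unadjusted p under 0.05, where 8.36% of all genes (3.84% up, 4.52% down) and 0.969% (0.522% up, 0.446% down) were called. With quantile normalization 3 and 2 members were called, and the share of all genes called with it is not given.

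Rpl21, a 60S protein, was called lower in all 3 conditions in the main fit. It had 15.35, 15.55, 15.46, 15.38 and 15.50 in vehicle at 24 h and 15.22, 15.16, 15.00, 15.21 and 15.16 at 48 h. No well at 48 h reached the lowest at 24 h, and the fall was -0.30 ± 0.068 (SE, n = 5, adjusted p = 0.00146). At 250 µM it went from 15.43, 15.47, 15.43, 15.39 and 15.48 to 15.15, 15.26, 15.24, 15.35 and 15.18, again without overlap, by -0.21 ± 0.068 (adjusted p = 0.0404). At 1000 µM the wells overlapped, with 15.19, 15.65, 15.47, 15.53 and 15.49 at 24 h and 15.25, 14.99, 15.38, 15.31 and 15.09 at 48 h, and the change was -0.26 ± 0.068 (adjusted p = 0.00616). With array medians centred the call was kept at 1000 µM (adjusted p = 0.0464) and lost in vehicle (0.0531) and at 250 µM (0.338). The call at 250 µM was also lost without the filter, with every probe set on its own and without the trend (limma adjusted p = 0.0606, 0.0524 and 0.0673). It was lost in most fits that left 1 array out, with 0.103 without replicate 1 at 48 h. Quantile normalization and the actin covariate kept it (0.00188 and 0.0384).

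Rps3, a 40S protein at the mRNA entry channel that also takes part in DNA repair, fell in vehicle and at 1000 µM. Its vehicle wells read 15.33, 15.53, 15.50, 15.44 and 15.77 at 24 h and 15.32, 15.23, 15.23, 15.32 and 15.21 at 48 h. Every well at 48 h lay below every well at 24 h, if barely, and the fall was -0.26 ± 0.077 (adjusted p = 0.0123). At 1000 µM it went from 15.22, 15.54, 15.52, 15.49 and 15.36 to 15.17, 14.91, 15.35, 15.26 and 15.05, with overlap, by -0.28 ± 0.077 (adjusted p = 0.0102). At 250 µM the change was -0.10 ± 0.077 and did not pass the test (adjusted p = 0.471). The call in vehicle was lost with quantile normalization (-0.12, adjusted p = 0.0519), with array medians centred (-0.19, adjusted p = 0.115), with the actin ratio as a covariate (adjusted p = 0.128) and without replicate 5 at 24 h (-0.19, adjusted p = 0.0593). The call at 1000 µM was kept under the first 3 of these settings and lost without replicate 2 at 48 h (-0.22, adjusted p = 0.0526).

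The other 3 of the 5 largest called falls in vehicle were of 60S proteins. Rpl24, which bridges the subunits, went in vehicle from 15.50, 15.66, 15.72, 15.68 and 15.75 to 15.35, 15.38, 15.28, 15.56 and 15.46, with overlap (-0.25 ± 0.059, adjusted p = 0.00152). Rpl14 went from 15.08, 15.13, 15.10, 15.05 and 15.17 to 14.88, 14.86, 14.79, 14.97 and 14.91, without overlap (-0.22 ± 0.048, adjusted p = 0.000811). Rpl12, at the base of the stalk, went from 15.73, 15.76, 15.80, 15.71 and 15.93 to 15.62, 15.51, 15.53, 15.64 and 15.56, also without overlap (-0.22 ± 0.059, adjusted p = 0.00588). Of the 41 members, 7 had vehicle groups that did not overlap, all lower at 48 h, where 4.4% of all genes lay wholly lower and 6.19% wholly higher. At 250 µM 4 members did, all lower, where 6.41% of genes lay wholly lower and 6.99% wholly higher, and at 1000 µM 3 did, all lower, where 6.57% and 7.53% did. At 1000 µM Rpl12 fell by 0.22 ± 0.059 (adjusted p = 0.00716), Rpl23a by 0.23 ± 0.059 (adjusted p = 0.00538) and Rpl35 by 0.21 ± 0.055 (adjusted p = 0.00518). Rplp0 had a change of 0.01 ± 0.083 in vehicle, 0.08 ± 0.083 at 250 µM and -0.10 ± 0.083 at 1000 µM, none past the test.

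These counts depend on the scaling and on single arrays. With array medians centred 0, 0 and 2 members fell in vehicle, 250 µM and 1000 µM. With quantile normalization 5, 11 and 16 fell. With the actin ratio as a covariate the counts were 4, 2 and 13, and with vehicle at 48 h represented by its replicate 4 alone 0 fell in vehicle. At 1000 µM 25 fell without replicate 1 at 24 h, the array with all members low, where 1736 of all genes were called, 957 of them higher. Without replicate 2 at 48 h 5 fell, where 1508 of all genes were called, 824 of them higher. The main fit called 1897 genes there, 1043 of them higher. For the other settings of this paragraph the counts over all genes are not given. In vehicle 8 fell without replicate 5 at 24 h and 17 without replicate 4 at 48 h. Of the 6 tested Kupffer cell and leukocyte markers 2, 1 and 3 fell with time in vehicle, 250 µM and 1000 µM and 0 rose. Over all tested genes 11.7%, 6.52% and 8.11% fell and 16.4%, 6.86% and 9.91% rose. C1qa, a complement protein of Kupffer cells, averaged 9.26 in vehicle at 24 h and 8.46 at 48 h. Over the same interval Lyz2 averaged 12.97 and 12.88, Csf1r 8.62 and 8.43, and Cd14 13.85 and 13.54. At 250 µM Cd14 averaged 13.83 and 13.88. The part of these cells in the result was not tested. In a bulk culture fewer hepatocytes and less of an RNA per hepatocyte cannot be told apart.

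**Figure D4:**
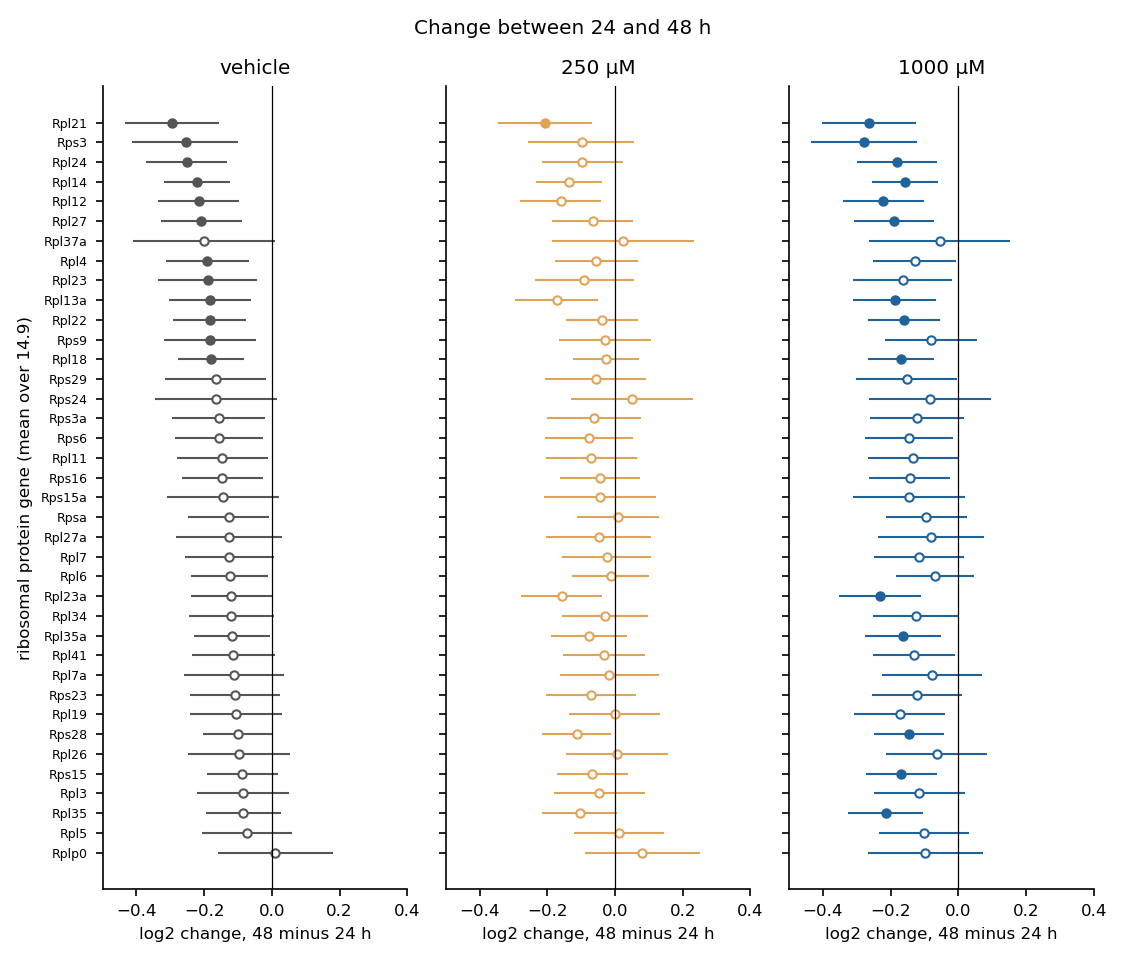
Log2 change from 24 to 48 h of the 38 bright ribosomal protein genes in vehicle, 250 µM and 1000 µM, with 95% intervals from limma and filled points where the gene was called, ordered by the vehicle change. In vehicle 37 of 38 points lie below 0 and 12 are filled, at 250 µM 32 lie below 0 and 1 is filled, and at 1000 µM all 38 lie below 0 and 14 are filled.

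Members with and without a C and a run at the annotated start are set side by side as values, without a test. The median log2 change over the 10 tested members with it and the 24 without was -0.03 and -0.05 for 250 µM at 24 h, -0.04 and -0.08 for 1000 µM at 24 h, 0.03 and 0.03 for 250 µM at 48 h, and -0.06 and -0.08 for 1000 µM at 48 h. Between 24 and 48 h it was -0.11 and -0.15 in vehicle, -0.05 and -0.05 at 250 µM and -0.16 and -0.14 at 1000 µM. Rpl35, with the run, and Rps3 and Rpl21, without it, are among the largest falls.

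Genes that build ribosomes without being part of them were taken as a second set. Of 121 listed ribosome biogenesis factors 113 were tested. At 24 h 8 fell and 2 rose at 250 µM, and 12 fell and 1 rose at 1000 µM, where 11% and 11.2% of all genes fell. At 48 h 58 of 113 (51.3%) fell and 3 rose at 250 µM, where 26% of all genes fell, and 47 (41.6%) fell and 2 rose at 1000 µM, where 18.3% did. The median change was -0.26 and -0.24 at 48 h. With the actin ratio as a covariate 37 and 26 fell, and the number of all genes that fell under it is not given here. The medians were then -0.26 and -0.23 with the covariate and -0.22 and -0.19 with vehicle at 48 h as its replicate 4 alone.

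Rcl1, an endonuclease-like protein of the small-subunit processome, fell at both times and doses, with wells of 13.97 to 14.18 in vehicle and 13.16 to 13.37 at 250 µM and 24 h, apart from each other. Its changes were -0.80 ± 0.07 (SE, n = 5, adjusted p = 1.82e-11) there and -0.78 ± 0.07 (adjusted p = 2.68e-11) at 1000 µM and 48 h. Rrs1, which brings the 5S particle to the pre-60S subunit, changed by -0.47 ± 0.08 and -0.49 ± 0.08 at 24 h and by -0.63 ± 0.08 and -0.54 ± 0.08 at 48 h. Nop2, a nucleolar rRNA methyltransferase, fell by 0.73 ± 0.09 at 250 µM and 48 h, and Ncl (nucleolin) fell by 0.30 ± 0.05 at 1000 µM and 48 h. Nmd3, the export adaptor of the 60S subunit, fell by 0.25 ± 0.05 and 0.35 ± 0.05 at 24 h. Aen, an exonuclease also induced by p53, fell by 0.66 ± 0.08 at 250 µM and 48 h.

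RNA polymerase I and its factors, which make the large ribosomal RNAs, fell in 7 of 14 tested genes (50%) at 250 µM and 4 of 14 (28.6%) at 1000 µM at 48 h, where 26% and 18.3% of all genes fell, and in 1 and 0 at 24 h, where 11% and 11.2% did. Rrn3, the factor that readies the polymerase for initiation, changed by -0.41 ± 0.07 (adjusted p = 7.67e-06) at 250 µM and 48 h. With the actin ratio as a covariate the Rrn3 difference was -0.24 (limma adjusted p = 0.00932), and with replicate 4 as the only vehicle array it was -0.13. Polr1h, Polr1c and Taf1d changed by -0.22, -0.25 and -0.38 in the main fit at 250 µM and 48 h. Against replicate 4 alone they changed by -0.35, -0.47 and -0.29.

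Translation factors moved in both directions. Of 33 initiation factors 13 fell (39.4%) and 2 rose (6.06%) at 250 µM and 9 fell (27.3%) and 2 rose at 1000 µM at 48 h, where 26% and 18.3% of all genes fell and 15.2% and 11.5% rose. Eif4e, the cap-binding protein, rose at both doses and times, by 0.28 ± 0.05, 0.26 ± 0.05, 0.44 ± 0.05 and 0.31 ± 0.05 for 250 and 1000 µM at 24 h and then at 48 h. At 24 h its wells were 14.16 to 14.28 in vehicle and 14.45 to 14.59 at 250 µM. Its difference at 48 h was 0.19 (adjusted p = 0.113) and 0.06 (adjusted p = 0.707) against replicate 4 alone. Of 13 elongation and termination factors 3 fell (23.1%) and 2 rose (15.4%) at 250 µM, close to the shares of all genes, and 4 fell (30.8%) and 1 rose (7.69%) at 1000 µM at 48 h. Eef2, which moves the ribosome along the message, changed by -0.33 ± 0.06 and -0.34 ± 0.06, and Eef1b2, an exchange factor for eEF1A, by 0.34 ± 0.07 at 250 µM. Adding the actin ratio as a covariate gave -0.13 and -0.20 for Eef2 (limma adjusted p = 0.0485 and 0.00166), and replicate 4 alone gave -0.16 and -0.17, not called (adjusted p = 0.273 and 0.248).

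Regulators of mTORC1, Myc and TOP messages (35 tested) fell in 4 and 5 genes and rose in 3 and 2 at 24 h, and fell in 10 and 10 and rose in 6 and 2 at 48 h. The shares that fell (11.4%, 14.3%, 28.6% and 28.6%) stood beside 11%, 11.2%, 26% and 18.3% of all genes, and were near that background except at 1000 µM and 48 h. Sesn1, an inhibitor of mTORC1 related to its leucine sensor, changed by -1.56 ± 0.11 and -1.26 ± 0.11 at 24 h and by -1.32 ± 0.11 and -0.87 ± 0.11 at 48 h, and fell in each. Its wells at 24 h were 11.54 to 12.26 in vehicle, 10.33 to 10.56 at 250 µM and 10.59 to 10.90 at 1000 µM, without overlap. Castor1, the arginine sensor that also restrains mTORC1, rose by 0.78 ± 0.10 and 0.72 ± 0.10 at 24 h. Larp1 fell by 0.43 ± 0.08 at 1000 µM and 24 h, and Myc by 0.51 ± 0.10 and 0.53 ± 0.10 at 24 h. Arrays measure messages, so the activity of mTORC1 and the translation of TOP messages were not measured.

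Of the 6 tested genes of the 5S particle and p53 list, which holds Rpl5 and Rpl11, 1 and 2 fell at 24 h (16.7% and 33.3%) and 4 and 2 at 48 h (66.7% and 33.3%), beside the shares of all genes just given. Gtf3a, the factor that starts 5S rRNA transcription, changed by -0.26 ± 0.09 at both doses at 24 h and by -0.39 ± 0.09 and -0.53 ± 0.09 at 48 h, and Cdkn1a, the p53 target p21, by -0.77 ± 0.11 and -0.39 ± 0.11 at 48 h. With the actin ratio as a covariate Cdkn1a changed by -0.49 (limma adjusted p = 0.00157) and -0.18 (adjusted p = 0.237), and against replicate 4 alone by -0.27 (adjusted p = 0.342) and 0.11 (adjusted p = 0.767), the latter with its sign turned. For Gtf3a the covariate gave -0.25 (adjusted p = 0.0881) and -0.42 (adjusted p = 0.00147), and replicate 4 alone -0.28 (adjusted p = 0.238) and -0.41 (adjusted p = 0.0615). Of 4 tested ribosome partners outside the rule 1 fell in each comparison with vehicle except 1000 µM at 48 h, where Eif6, which keeps the 60S subunit from joining too early, and Nap1l1 fell. Among 4 tested paralogues of ribosomal proteins, kept out by the rule, 0 were called in any comparison with vehicle.

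**Figure D5:**
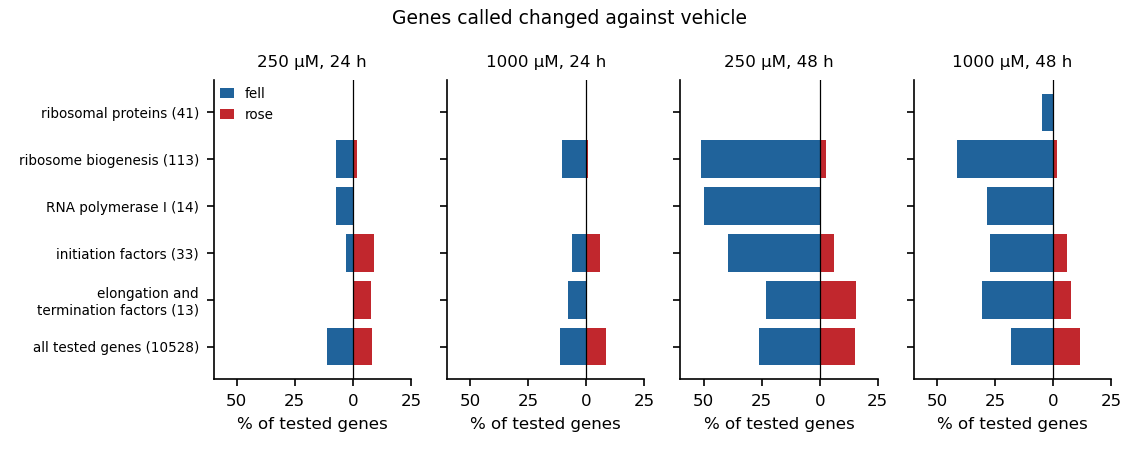
Share of the tested genes in each list that limma called lower (blue, to the left) or higher (red, to the right) than vehicle, with the number tested in brackets. Ribosomal proteins have no bar except at 1000 µM and 48 h (4.88% fell), while 51.3% and 41.6% of ribosome biogenesis factors fell at 48 h.

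Other probe sets of the same genes did not all move with the ones used. A dim second probe set of Rps24 (mean 10.17), a 40S protein whose transcript is spliced in several forms, fell by 0.39 ± 0.10 at 250 µM and 24 h (adjusted p = 0.00691), by 0.59 ± 0.10 at 250 µM and 48 h (adjusted p = 2.56e-05) and by 0.38 ± 0.10 at 1000 µM and 48 h (adjusted p = 0.00541). The bright probe set of Rps24 (mean 15.70) gave -0.04 ± 0.09, 0.18 ± 0.09 and 0.04 ± 0.09. Which transcripts each probe set reads was not tested. Dim probe sets of Rpl14 and Rpl7 rose at 250 µM and 48 h by 0.60 ± 0.22 (adjusted p = 0.0302) and 0.24 ± 0.09 (adjusted p = 0.0458), where the used ones gave 0.09 ± 0.05 and 0.06 ± 0.06. One probe set of Rpsa marked for cross-hybridisation fell by 0.26 ± 0.08 at 1000 µM and 24 h (adjusted p = 0.0243), against -0.10 ± 0.06 in the used one. These genes were picked out after their values were seen.

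A further 33 probe sets name a ribosomal protein together with other genes and were kept out by the rule. In a separate test over 18625 probe sets 0 were called at 24 h at either dose, where 8.78% and 9.08% of all probe sets fell and 6.85% and 6.82% rose. At 48 h 2 rose and 0 fell at 250 µM, where 20.9% fell and 14.3% rose, and 0 were called at 1000 µM, where 13.6% fell and 10.6% rose. Between 24 and 48 h 13, 1 and 6 of the 33 fell in vehicle, 250 µM and 1000 µM, where 11.3%, 4.48% and 6.46% of these probe sets did. Processed pseudogenes of ribosomal proteins are common in mammals, and shared probe sequence was not tested.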

How the data were processed

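RNA was measured on 30 Affymetrix rat arrays. The authors deposited one linear intensity for each probe set, computed with MAS5 per the submitters' processing notes, which name no version or settings. The 2% trimmed mean was 1500.6 to 1500.7 on every array. Such scaling sets changes relative to the array's average, so other scalings were tried. Signals were turned into log2(signal + 1), 57 control probe sets and the 40% with the lowest mean were left out, and 1 probe set per gene was kept. limma 3.58.1 in R 4.3.3 fitted 1 mean per group to 10528 genes over all 30 arrays (24 residual degrees of freedom, moderated with a trend), and 11 contrasts were tested. Called means a Benjamini-Hochberg adjusted p under 0.05 over all tested genes. The fit was tested on simulated data with independent noise in each gene, so that check does not cover the whole-array shifts seen here. Named genes were the up to 5 called members of largest rise and of largest fall per comparison, Rplp0, Rplp1, Rplp2, Rpsa, Rps6, Rpl5, Rpl11, Rps27a and Rpl13a where measured, and examples from up to 4 called genes of smallest p in each other list. The members and lists were chosen with earlier results of these data known. Alternatives were array median centring, quantile normalization, a pseudocount of 32, no filter, the mean of a gene's probe sets, every probe set on its own, no trend, only the groups compared, the actin ratio as a covariate, 1 vehicle array at 48 h, sets of label numbers as a block, and each array left out.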

Additional observations from a re-analysis of the deposited data

Results flagged for a closer look

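Named members and the median of the members, 14 items together, were each checked in the 6 groups of 5 wells. In 8 of these 84 checks the highest or lowest well lay far from the others. The items share the same arrays and moved together on them, so the 8 are not independent and no chance level is set beside them. Replicate 3 of 250 µM at 24 h was the highest of its group for Rplp0 (15.92, the next 15.59), Rpl5 (15.81, the next 15.62), Rpl23a (15.51, the next 15.37) and Rpl24 (15.73, the next 15.62). Replicate 1 of 1000 µM at 24 h was the lowest for Rps6 (15.49, the next 15.79), Rpl13a (15.23, the next 15.48) and Rpl14 (14.87, the next 15.05). Replicate 3 of vehicle at 48 h was the lowest for Rpl21 (15.00, the next 15.16). On these 3 arrays 37, 38 and 38 of the 38 bright members lay on the same side of their group means.

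A control probe set for rat 5S ribosomal RNA, outside the gene tests, was above the vehicle wells in every well at 250 µM and 48 h, with a mean of 9.70 ± 0.223 against 9.14 ± 0.192 (SD, n = 5, exact two-sided permutation p = 0.00794, the smallest this design allows, adjusted p = 0.0357 over 9 comparisons). It was also higher by 0.38 and 0.47 at 24 h and by 0.36 at 1000 µM and 48 h (adjusted p = 0.0357 for each, exact permutation). From 24 to 48 h it was lower by 0.35 in vehicle and by 0.46 at 1000 µM (adjusted p = 0.0357 for each), and by 0.17 at 250 µM (adjusted p = 0.268). With array medians centred the differences from vehicle were 0.40 and 0.50 at 24 h and 0.56 and 0.32 at 48 h for 250 and 1000 µM. Their adjusted p values were then 0.0571, 0.0571, 0.0571 and 0.0596 (exact permutation). From 24 to 48 h the centred differences were -0.29 in vehicle, -0.12 at 250 µM and -0.46 at 1000 µM (exact permutation, adjusted p = 0.0571, 0.509 and 0.0571). After centring on the other bright genes each difference from vehicle had an adjusted p of 0.0536 (exact permutation). The changes with time then had 0.0714, 0.255 and 0.0571.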

How the results depend on the processing

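Counts of members called at 24 h stayed at 0 under every setting tried, except 1 at each dose with the mean of a gene's probe sets. The same mean gave 2 at 250 µM and 48 h. With array medians centred 0 were called at 1000 µM and 48 h, 0 and 0 with time in vehicle and at 250 µM, and 2 with time at 1000 µM. Quantile normalization gave 6 and 8 at 250 and 1000 µM and 48 h, 5 and 11 with time in vehicle and at 250 µM, and 3 and 2 for the differences between times. Centring on the other bright genes, chosen after seeing the data, gave 16, 16, 6, 17 and, for the difference at 250 µM, 3, and Rps6 at 250 µM and 48 h then had a change of -0.11 (adjusted p = 0.00463, limma) in place of 0.01. With the actin ratio as a covariate the counts were 0 at 1000 µM and 48 h and 4 and 2 with time in vehicle and at 250 µM, and with quantile normalization added, also chosen later, 4, 6, 0 and 12. Time at 250 µM had 0 without the filter, with every probe set on its own and without the trend, and 5 with only the groups compared. With vehicle at 48 h as 1 array the counts at 1000 µM and 48 h were 2, 1, 0, 0 and 0 for arrays 1 to 5, and with time in vehicle 1, 0, 6, 0 and 1. Leaving out 1 array gave 0 to 3 at 250 µM and 48 h, 0 to 2 at 1000 µM and 48 h, 8 to 17 with time in vehicle, 0 to 2 at 250 µM and 5 to 25 at 1000 µM. The number of all genes called also changed with the setting and is not given beside these counts. Of 909 values for 37 member and comparison pairs, 832 kept the call or the lack of one, 69 lost the call, 7 gained one and 1 gained one with its sign turned. Changes of sign among uncalled values were not counted. Pairs not called in the main fit, which had no call to lose, are among the 37. The cause of these differences was not tested. The numbers in the titles run through the 6 groups in 5 sets of 6, and the labels do not say what a set is. Arrays of 1 set deviated from their group means with correlations of -0.12 to 0.22 over genes (median 0.04, against -0.01 between sets). Of the 30 arrays 14 correlated best with an array of their own set, more than the 1 in 5 that sets without meaning would give. Shared variation within a set is therefore not excluded. The main fit took no account of the sets. With the set as a replicate block, chosen after seeing the data, the counts were 1 at 250 µM and 48 h (Rps24, 0.18, adjusted p = 0.048, limma), 2 at 1000 µM and 48 h, and 14, 1 and 15 with time in vehicle, 250 µM and 1000 µM, and no other count changed.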
